A study of Mus musculus with 8 samples.

Results

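Nr4a1, Nr4a2 and Nr4a3, which make up the NR4A family of nuclear receptors, and Arc, an immediate early gene best known from neurons, were followed on 8 arrays of mouse embryonic fibroblasts before and after serum. The 4 genes were picked for strong induction by serum in both genotypes, so they were chosen by the serum changes of these same arrays, and those changes are given here as a description with no test. All probe sets that the array annotation gives to 1 of these symbols alone were taken, which were 6 of 22626 probe sets and 4 of 12393 genes. Nr4a2 and Nr4a3 have 2 probe sets each, and Nr4a1 and Arc have 1 each. The strong induction held in both genotypes for Nr4a1 and Arc. It did not hold for Nr4a2, which changed far less, or for Nr4a3, whose signal stayed among the dimmest of the array in every group.

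The fibroblasts came from embryos of day 11 and had been passaged through crisis, the stage after which a primary culture grows on as an immortal line. Cells of wild type (WT) and cells without Med23 (Med23-/-, KO), a subunit of the Mediator complex, were all kept for 16 h in medium with 0.5% serum. In each genotype 2 arrays were from cells harvested at that point (starved) and 2 from cells then given 20% fetal bovine serum for 30 min (serum), so each group has n = 2. The study asked which serum-responsive genes depend on MED23. The labels do not say whether replicates were separate cultures, so p-values measure only the spread between these samples, and whatever sets the 2 cultures apart besides Med23 cannot be told apart from the genotype. In bulk RNA, fewer responding cells and less RNA per cell cannot be told apart either.

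NR4A receptors are orphan receptors: the ligand pocket is filled by bulky side chains, and their activity follows mainly from how much receptor is made and from its phosphorylation. They bind DNA as monomers or dimers, and growth factors, cAMP and calcium switch their genes on within minutes through CREB, MEF2 and SRF, the latter acting with its ternary complex partners. Arc descends from a retrotransposon Gag gene; its protein promotes endocytosis of AMPA receptors at synapses and can assemble into capsids that carry RNA, and its gene is likewise under SRF, CREB and MEF2 in neurons.

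The signal of the Med23 probe set checks the labels: it was 3577 to 5410 on the 4 WT arrays and 28 to 132.5 on the 4 KO arrays. In limma's fit the KO minus WT difference was -6.00 ± 0.449 (SE) on the log2 scale in starved cells (adjusted p = 3.81e-06). The sources used here do not give whether the deleted stretch covers that probe set. Arrays had the same trimmed mean signal (2500.6 to 2500.8), and replicates correlated at r of 0.973 to 0.98 over probe sets. Of 10 fibroblast markers, 7 were bright enough on all 8 arrays, that is, not under the 40th percentile of each array, and Thy1 was below it on all 8. The summed fibroblast marker signal was 166867 to 186852 in WT and 283479 to 378378 in KO cells, and the members differed among themselves. In starved cells Pdgfra averaged 126.7 in WT and 13467 in KO, Col1a2 4726 and 80479, and Col3a1 10713 and 50464. Closer were Col1a1, at 46280 and 56975, and Fn1, at 50854 and 52138, whereas Dcn was lower in KO, at 6523 and 2933. No neuron marker of 8 was at that percentile on all arrays and 5 were below it on all. Their summed signal was 2544 to 3115 in WT and 2362 to 2603 in KO cells, with members apart in opposite directions: starved WT and KO means were 346.8 and 1717 for Map2, 639.7 and 20.39 for Tubb3 and 1401 and 188.4 for Stmn2. Of the 5 T cell, 5 macrophage, 4 endothelial, 4 epithelial and 4 skeletal muscle markers on the array, 5, 2, 3, 3 and 3 were below it throughout. The part of these marker differences in the results on Nr4a genes and Arc was not tested.

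The promoter windows of the 3 receptor genes are shown because all hold the short form of the cAMP response element, the site that CREB binds. They run from 250 bases before to 50 bases after the start of transcription, 5′ to 3′ on the gene's strand, from RefSeq on GRCm38.p6, with TGACG and its reverse complement CGTCA in capitals.
Nr4a1, chr15:101266596-101266895, plus strand: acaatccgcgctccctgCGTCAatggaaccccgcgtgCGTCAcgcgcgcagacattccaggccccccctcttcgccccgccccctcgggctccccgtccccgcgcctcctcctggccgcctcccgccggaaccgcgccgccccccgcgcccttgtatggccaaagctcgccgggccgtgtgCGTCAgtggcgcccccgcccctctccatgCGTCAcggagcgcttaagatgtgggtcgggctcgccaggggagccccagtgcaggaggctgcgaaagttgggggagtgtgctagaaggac
Nr4a2, chr2:57123954-57124253, minus strand: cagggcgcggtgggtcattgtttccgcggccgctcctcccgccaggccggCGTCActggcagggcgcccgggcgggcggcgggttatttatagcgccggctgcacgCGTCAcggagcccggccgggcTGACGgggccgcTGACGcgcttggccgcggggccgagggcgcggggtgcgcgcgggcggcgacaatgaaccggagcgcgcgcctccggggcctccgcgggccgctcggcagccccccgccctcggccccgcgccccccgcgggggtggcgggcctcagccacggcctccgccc
Nr4a3, chr4:48045055-48045354, plus strand: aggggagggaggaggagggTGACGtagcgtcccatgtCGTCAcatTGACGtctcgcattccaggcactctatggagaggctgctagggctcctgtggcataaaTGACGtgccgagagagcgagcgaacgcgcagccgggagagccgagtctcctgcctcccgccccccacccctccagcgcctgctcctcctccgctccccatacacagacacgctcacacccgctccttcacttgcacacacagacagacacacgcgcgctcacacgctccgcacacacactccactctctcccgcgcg
The Nr4a1 window lies inside the annotated gene, which spans 101253902 to 101274795 on chromosome 15, at the start that the table gives. The gene Nr4a2 spans 57106830 to 57124003 on chromosome 2, Nr4a3 spans 48045078 to 48086447 on chromosome 4, and Arc lies at 74669081 to 74672570 on chromosome 15.

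Each of the 3 windows held 4 matches to TGACG when both strands were searched. Among all 32851 windows of this length, 20.8% held at least 1 match and 0.231%, or 76 windows, held at least 4. In Nr4a1 the matches began at -233, -213, -69 and -40 from the start, all on the reverse strand. In Nr4a2 they began at -200, -144, -123 and -111, and in Nr4a3 at -231, -213, -205 and -147. The matches of Nr4a2 and Nr4a3 therefore lay more than 100 bases before the start, whereas Nr4a1 also had a pair close to it. None of the 3 windows held the full palindrome TGACGTCA, which 1.79% of windows held, or a CArG box, the SRF site, which 1.63% held. The Nr4a2 window alone of the 3 held a MEF2 site, at -167 to -158, which overlaps a TATAAA on the reverse strand at -164 to -159. A MEF2 site was found in 3.19% and TATAAA in 13.6% of all windows. The bases were 72.3% G or C in the Nr4a1 window, 81.7% in that of Nr4a2 and 64.7% in that of Nr4a3. A match is a description of the letters in this window and does not show that a factor binds there.

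**Figure D1:**
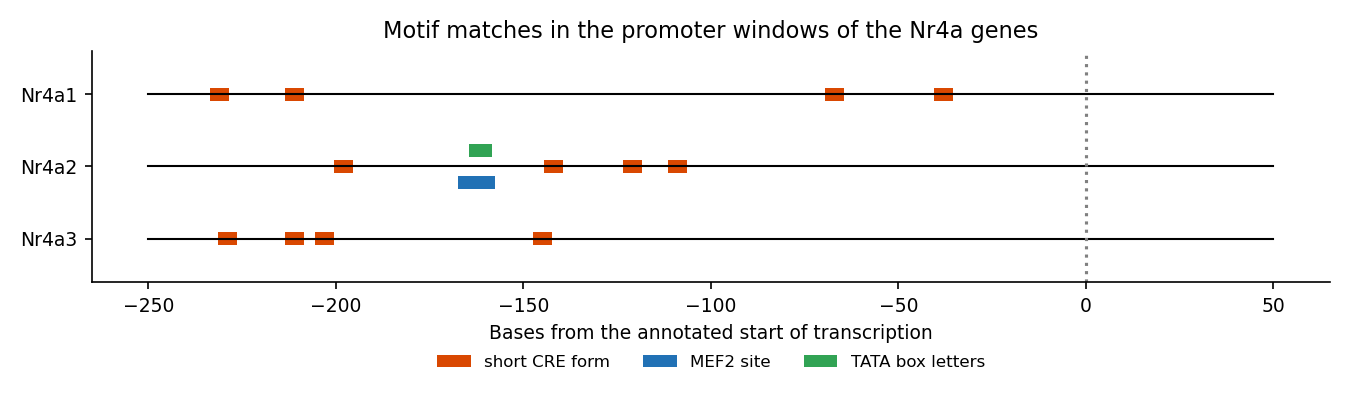
Position of motif matches in the promoter windows of Nr4a1, Nr4a2 and Nr4a3, in bases from the start of transcription, with the bars as long as the match. Each window holds 4 TGACG matches, and only Nr4a2 has a MEF2 site, which overlaps a TATAAA.

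Nr4a1, also known as NGFI-B, a receptor first cloned as a growth factor response gene, went from a middling to one of the brightest signals on the array. Its probe set (1416505_at) read 1134 and 1046 in starved WT cells and 41056 and 39463 after serum. In KO cells it read 965 and 1469 starved and 45823 and 49449 after serum. The serum arrays lay far above the starved ones in both genotypes with no overlap, and the genotypes overlapped when starved. The probe set stood at the 51.8 to 59.3 percentile of its array in starved cells and at the 99.5 to 99.6 percentile after serum. On the log2(signal + 16) scale the rise was 5.19 ± 0.171 (SE) in WT, which is 36.4-fold, and 5.30 ± 0.171 in KO, which is 39.5-fold. Among the 14947 tested probe sets these rises ranked 5 in WT and 10 in KO.

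Arc, whose probe set (1418687_at) was near the floor of the array before serum, is the other gene with a large rise. It read 27.68 and 50.18 in starved WT cells and 3791 and 2435 after serum. In KO cells it read 47.66 and 57.59 starved and 6494 and 5986 after serum. Every serum array was above every starved array, and both KO serum arrays were above both WT serum arrays. Starved signals stood at the 8.3 to 12.3 percentile of the array, and serum signals at 69.5 and 78.1 in WT and 86.1 and 87 in KO. The rise was 5.83 ± 0.3 in WT (56.8-fold, rank 2) and 6.51 ± 0.3 in KO (91.3-fold, rank 4). Because the starved signal is so low, the size of this rise depends on the constant added before the logarithm: with the largest constant tried in place of 16 it was 3.49 in WT and 4.39 in KO. Whether Arc or Nr4a1 rose more therefore turned with that constant, since Nr4a1 gave 4.91 and 5.04 with the largest one, and with 64 Arc gave 4.92 and Nr4a1 5.13 in WT.

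Nr4a2, known as Nurr1 and required for midbrain dopamine neurons, moved much less, and its probe sets differed. The first (1450749_a_at) read 458.7 and 362.7 in starved WT cells and 692.8 and 822.4 after serum. In KO cells it read 459 and 182.5 starved and 699 and 852 after serum. The serum arrays were above the starved ones in both genotypes, and all 4 starved arrays were under their own 40th percentile. The rise was 0.86 ± 0.372 in WT and 1.36 ± 0.372 in KO, and starved KO array 2, the lowest, carried much of the latter, which was 0.73 without it and 1.99 without starved KO array 1.

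The second Nr4a2 probe set (1450750_a_at) read 431.7 and 633.6 in starved WT cells and 1479 and 1250 after serum. In KO cells it read 539.9 and 623.6 starved and 620.7 and 716.3 after serum. Here WT rose without overlap and the KO groups overlapped. The change was 1.35 ± 0.235 in WT (rank 168) and 0.20 ± 0.235 in KO (rank 3347). The WT change was 1.05 with the largest constant added, and 1.08 without starved WT array 1. The 2 probe sets of this gene ranked the genotypes in opposite order by serum change, an order that rests on starved KO array 2, since the first gave 0.73 in KO without it. Nothing in the files says which transcripts each one measures.

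Nr4a3, known as NOR-1, has both of its probe sets in the noise range of the array. The first (1421079_at) read 43.16 and 57.91 in starved WT cells, 143.1 and 107.8 in WT after serum, 46.08 and 22.94 in starved KO cells and 19.02 and 60 in KO after serum. The second (1421080_at) read 92.14 and 139.1, 167.7 and 181.8, 96.64 and 86.94, and 134.7 and 128.4 in the same order. WT serum arrays were above starved ones for both probe sets, and KO serum arrays were above starved ones for the second alone. These signals stood between the 5.1 and 24.6 percentile of their arrays and were under the 40th percentile on all 8, so neither probe set was tested. The log2 differences were 1.09 in WT and 0.07 in KO for the first and 0.56 and 0.45 for the second. At this signal, a response of Nr4a3 was not measurable with any precision, which does not show that there was none.

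**Figure D2:**
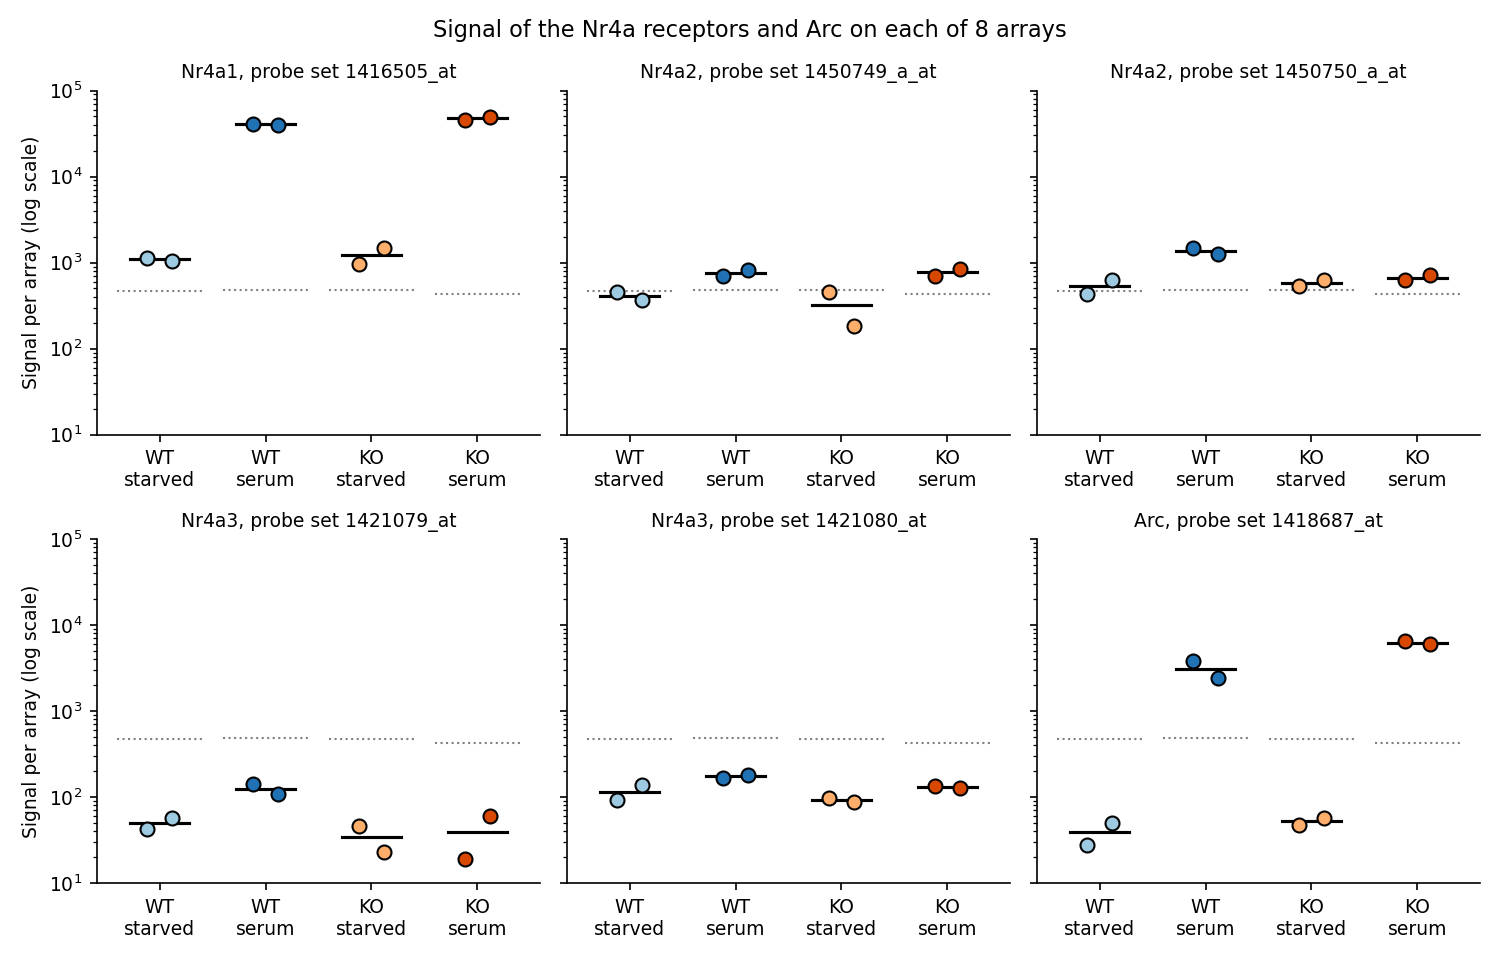
Signal per array on a log axis for the 6 probe sets of Nr4a1, Nr4a2, Nr4a3 and Arc in the 4 groups, with points for arrays, bars for group means and a dotted line at the mean 40th percentile of the arrays. Nr4a1 and Arc rise in both genotypes, the Nr4a2 probe sets part in KO cells, and Nr4a3 stays below the dotted line.

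**Figure D3:**
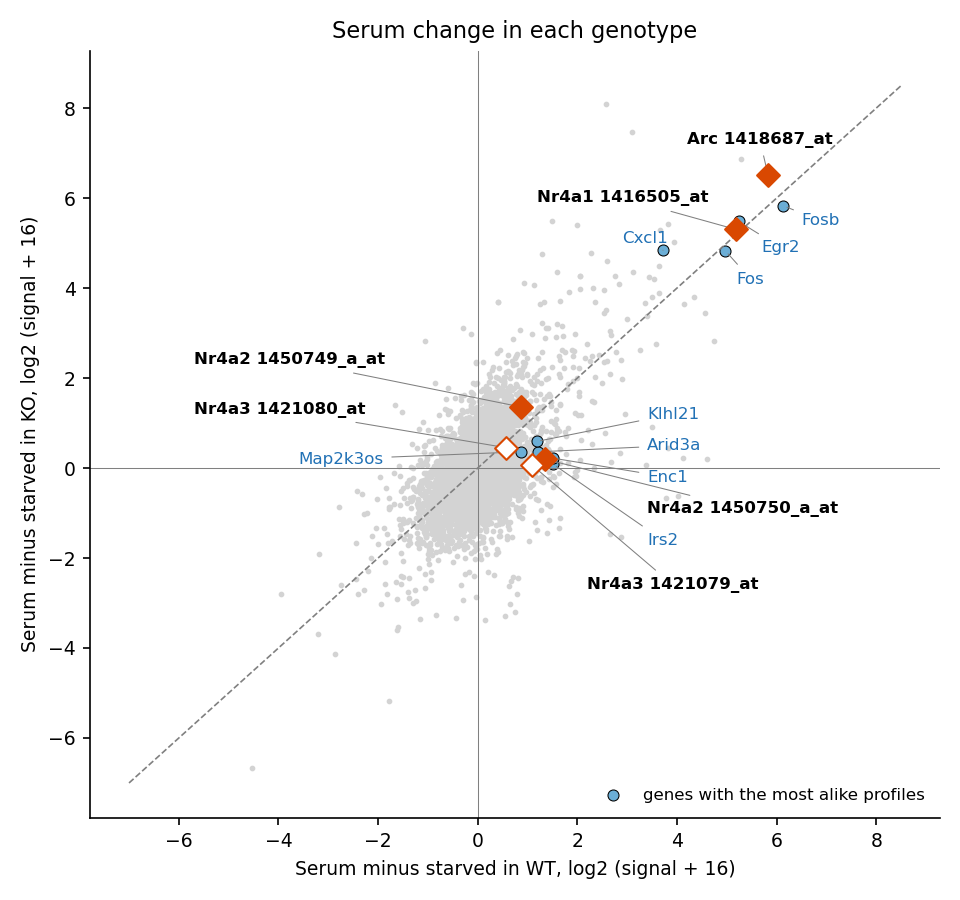
Serum change in WT (x axis) against serum change in KO (y axis), both as log2 differences, for all tested probe sets in grey, for the chosen genes as diamonds (open where not tested) and for the genes with the most similar profiles in blue. The dashed line marks equal change. Nr4a1 and Arc lie near the far end of the cloud, and the second Nr4a2 probe set lies well to the right of the dashed line.

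Before serum, the loss of Med23 was compared at the level of these genes. This contrast did not itself choose them, but its arrays enter the serum changes that did. That choice favours a low starved signal in both genotypes. Of the 6 probe sets, 4 could be tested, and limma with Benjamini-Hochberg adjustment called none of the 4 in starved cells. Arc and the first Nr4a2 probe set passed the filter through their serum arrays alone and were under the 40th percentile on all 4 starved arrays, so for them this comparison is between signals near or in the noise range, and nothing is read from the count. At an unadjusted p under 0.05 the count was also 0, and so it was for differences over 2-fold with no overlap of arrays, the study's own size. Over all 14947 tested probe sets, 22.8% were called higher and 24.8% lower in starved KO cells, and 8.8% and 10.5% passed the 2-fold rule. The KO minus WT difference of Nr4a1 was 0.13 ± 0.171 (SE; adjusted p = 0.571), with a 95% interval of -0.25 to 0.51. It was -0.17 without starved KO array 2 and 0.43 without array 1, with an adjusted p of 0.0196 in the latter. Arc differed by 0.35 ± 0.3 (adjusted p = 0.367). The Nr4a2 probe sets differed by -0.47 ± 0.372 (adjusted p = 0.331) and 0.15 ± 0.235 (adjusted p = 0.641). The first became -1.09 without starved KO array 1 (adjusted p = 0.0166) and 0.16 without array 2.

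The comparison after serum likewise uses arrays that entered the changes that chose these genes. After serum, 2 of the 4 tested probe sets were called, Arc higher and the second Nr4a2 probe set lower in KO cells. Among all tested probe sets 22.7% were called higher and 27.5% lower in that comparison, so calls at this rate are the background of these cells, and 8.55% and 12% passed the 2-fold rule. Arc was 1.03 ± 0.3 higher in KO than in WT cells (95% interval 0.37 to 1.70, adjusted p = 0.016), which is 2.05-fold, and both KO arrays were above both WT arrays. The difference was 0.72 without WT serum array 2 (adjusted p = 0.156), 0.97 without KO serum array 1 (adjusted p = 0.108) and 1.09 without KO serum array 2 (adjusted p = 0.0737), so the call needs these arrays. The second Nr4a2 probe set was 1.01 lower in KO cells, at -1.01 ± 0.235 (95% interval -1.53 to -0.49, adjusted p = 0.00513), with no overlap of arrays. The first Nr4a2 probe set differed by 0.03 ± 0.372 (adjusted p = 0.952), so the lower Nr4a2 signal was not seen with both probe sets. For Nr4a1 the difference was 0.24 ± 0.171 (95% interval -0.14 to 0.62, adjusted p = 0.265), with both KO arrays above both WT arrays, and -0.08 after quantile normalization. Lack of overlap alone says little, here and for Nr4a3, as an exact permutation test of 2 against 2 arrays cannot go below p = 0.333. Of the untested Nr4a3 probe sets, the first differed by -1.44 and the second by -0.37, both with no overlap of arrays, and in a fit without the filter on dim probe sets the first lay at the threshold itself (limma, adjusted p = 0.05) and the second did not pass (adjusted p = 0.51). At this signal the first value is loose: it was -0.88 without KO serum array 1, -2.00 without array 2, -0.89 with 64 added and -0.37 with the largest constant.

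**Figure D4:**
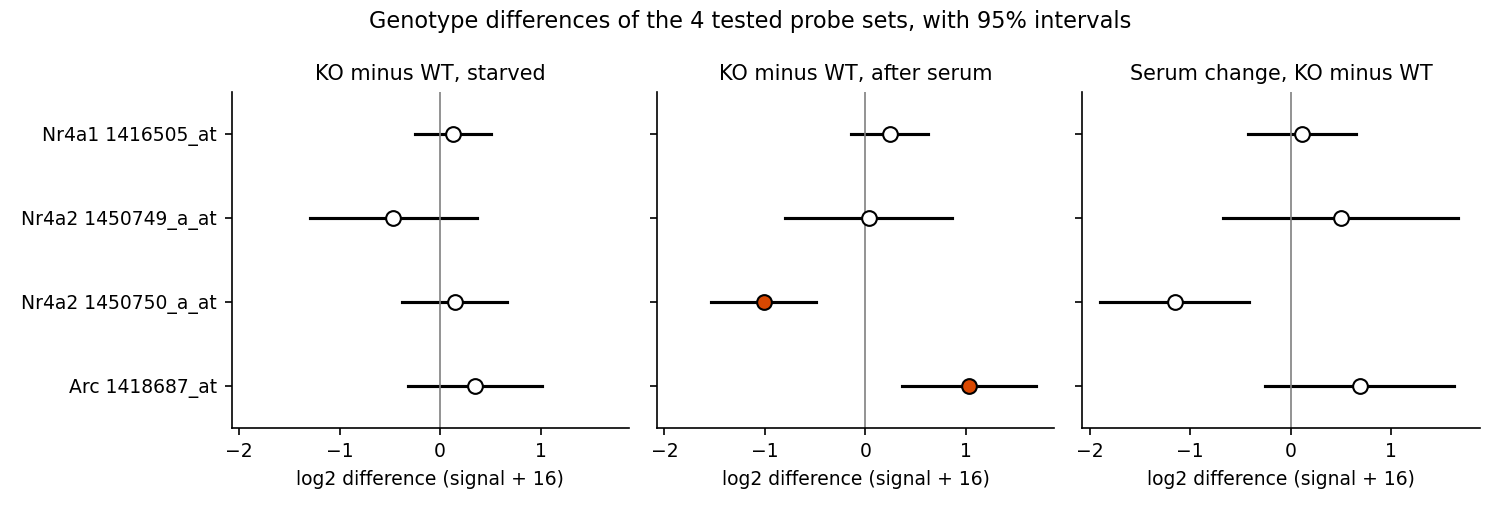
KO minus WT difference of the log2 signal in starved cells, after serum and as the difference of serum changes, for the tested probe sets, with 95% intervals; filled orange points passed an adjusted p of 0.05. After serum, Arc lies above 0 and the second Nr4a2 probe set below it.

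The difference between the serum changes, KO minus WT, bears on the study's question. It is built from the changes that chose these genes, and picking for strong induction in both genotypes may favour a small difference. Nothing is therefore read from the count of calls. None of the 4 tested probe sets was called by limma, and 1 had an unadjusted p under 0.05. Over all tested probe sets, 1.61% were called with a larger and 1.08% with a smaller change in KO cells. That probe set was the second of Nr4a2, at -1.16 ± 0.332 (95% interval -1.90 to -0.42, adjusted p = 0.0992). It also differed by over 2-fold without overlap of arrays, which 2.26% of probe sets passed upward and 2.67% downward. The first Nr4a2 probe set had the opposite sign, 0.50 ± 0.526 (adjusted p = 0.66), which turned to -0.13 without starved KO array 2. Arc gave 0.68 ± 0.424 (adjusted p = 0.418), which did not pass. With other constants, normalizations, filters and fits it was 0.56 to 0.91 (limma, adjusted p of 0.0906 to 0.587). Its starved signals lie near the floor of the array, so this value does not settle whether the serum change of Arc differed between genotypes. Nr4a1 gave 0.11 ± 0.242 (adjusted p = 0.842), with a 95% interval of -0.42 to 0.65. That value turned to -0.25 after quantile normalization and to -0.18 without starved KO array 1.

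Profiles over the 8 arrays were compared by the root mean square difference of log2 values after each profile was centred on its mean, a description over 8 arrays that share their groups. For Nr4a1 and Arc this measure follows mostly the size of the serum rise, by which both were chosen. Their likeness to each other and to other strongly induced genes is therefore no added support. The genes most like Nr4a1 were Egr2 (0.214), a zinc finger factor, Fosb (0.476) and Fos (0.476), both AP-1 subunits, Arc (0.603) and Cxcl1 (0.609), a chemokine. Those most like Arc were Fosb (0.392), Egr2 (0.589), Nr4a1 (0.603), Fos (0.738) and Cxcl1 (1.016). The likeness order of Arc kept 2 of 5 genes with the largest constant added to the signal. Egr2 rose by 5.24 in WT and 5.48 in KO, Fosb by 6.13 and 5.83, Fos by 4.97 and 4.83, and Cxcl1 by 3.72 and 4.84.

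The second Nr4a2 probe set had another company. Its closest profiles were those of Irs2 (0.172), an adaptor of the insulin receptor, Enc1 (0.183), Arid3a (0.187), Map2k3os (0.216) and Klhl21 (0.234). All 5 were picked by this likeness, so their similar changes are no added support for the pattern of this probe set. Like it, Irs2 changed by 1.51 in WT and 0.09 in KO, Enc1 by 1.51 and 0.22 and Arid3a by 1.21 and 0.36. The genotypes were less far apart for Map2k3os (0.86 in WT and 0.36 in KO) and Klhl21 (1.18 and 0.59). Profiles closest to Nr4a3, taken from its second probe set, were Thoc2l (0.113), Rspry1 (0.113), Usp12 (0.131), Crk (0.136) and Elf2 (0.139). None of these 5 stayed with the largest constant added. Of the 5 other constants and normalizations tried, only 1 left this list nearly unchanged. The 2 probe sets of Nr4a2 differed by 0.637 and those of Nr4a3 by 0.52, more than each gene's closest profiles did. Promoter windows were searched for the genes closest to Nr4a1, Arc and the second Nr4a2 probe set. Fos and Cxcl1 held 2 TGACG matches, Fosb and Klhl21 held 1, and Irs2 and Map2k3os held 0. Enc1 and Arid3a had no window. The 5 windows of Egr2 held 0 to 2, with a CArG box in 4 of them. Several of these Egr2 windows overlap, so the same site may be counted more than once.

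Genes around these 4 were described in 6 lists, each gene by its brightest probe set. Activity-regulated genes of neurons, a class that Arc exemplifies, rose most often: of 20 genes 15 were tested, and 8 rose and 0 fell in WT, and 10 rose and 1 fell in KO (limma, with 11 higher and 1 lower in each genotype at an unadjusted p under 0.05). Over all tested probe sets 2.44% rose and 1.7% fell in WT, and 9.33% rose and 13.8% fell in KO. The list was chosen with earlier results of these data known, so its larger share is a description and no added support. The list's median change was 1.35 in WT and 1.09 in KO, against -0.05 and -0.13 over all tested probe sets. Egr4, a zinc finger factor, rose by 4.35 ± 0.505 in WT and 3.80 ± 0.505 in KO (adjusted p = 0.000742 and 0.000688). Plk3, a polo-like kinase, rose by 3.65 ± 0.555 in WT and 5.28 ± 0.555 in KO (adjusted p = 0.00412 and 0.000152). Its starved means of 109.5 and 29.22 lie near the floor, and with the largest constant added the rises were 2.05 and 2.81. Ifrd1 rose by 2.35 in WT and 3.68 in KO. Egr3 rose by 2.59 in WT, and in KO cells its mean signal went from 599 to 3158. Nfil3, a bZIP repressor, rose by 3.12 in KO cells, and in WT its mean signal went from 2900 to 7590. The gene that fell in KO cells, Rgs2, a regulator of G protein signalling named here after its values were seen, gave -2.76 ± 0.604 (adjusted p = 0.00975). That call was lost without either starved KO array and without KO serum array 1, which left 0.

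The factors that act on such promoters, of the CREB, MEF2 and SRF classes with their kinases and coactivators, changed less. Of 22 tested of 32, only Srf rose and 0 fell in WT cells (limma, with 4 higher and 0 lower at an unadjusted p under 0.05). Srf rose by 1.58 ± 0.128 in WT (adjusted p = 5.32e-05) and by 1.29 ± 0.128 in KO cells (adjusted p = 0.000109). In KO cells 5 of the 22 rose and 1 fell, beside 9.33% and 13.8% of all tested probe sets. The 1 was Mrtfa, an SRF coactivator, at -0.70 ± 0.123 (adjusted p = 0.00321). The 5 became 2 without KO serum array 1 and 3 without KO serum array 2 or starved KO array 2, and the 1 became 2 without either starved KO array. With each gene taken by its most variable probe set, 2 rose and 3 fell. The list's median was 0.13 in WT and 0.06 in KO.

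Of other nuclear receptors, given beside the NR4A family, 17 of 40 were tested, and in WT cells limma called 0 higher and 1 lower, a count near the 2.44% and 1.7% of all probe sets (adjusted p under 0.05, with 3 higher and 2 lower at an unadjusted p under 0.05). The 1 was Nr2f2, at -1.04 ± 0.156 (adjusted p = 0.00379), an orphan receptor whose other probe sets gave -1.15 and -1.11 without passing, and the count was 0 when each gene was taken by its most variable probe set. In KO cells 0 were called higher and 5 lower, beside 9.33% and 13.8% of all probe sets, with 1 and 6 at an unadjusted p under 0.05. They included Nr2c2 at -1.20, Rara, a retinoic acid receptor, at -1.02, and Rxrb, a common dimer partner, at -0.97. The 5 became 3 without either KO serum array and 3 with each array centred on its median, which also called 1 higher, as did leaving out starved KO array 1. The list's median was -0.03 in WT and -0.33 in KO.

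The serum background over all tested probe sets was 2.44% higher and 1.7% lower in WT, and 9.33% higher and 13.8% lower in KO. With so few genes tested in each list below, nothing about a list is read from its count of calls. Genes reported as NR4A targets in other tissues, 9 tested of 21, had no call in either genotype by limma (1 in WT and 2 in KO at an unadjusted p under 0.05), with medians of 0.08 and -0.15. Without starved KO array 1, 1 rose in KO, and without starved KO array 2, 1 fell. The 14 tested partners of Arc among 21 had no call in WT and 1 lower in KO, Dnm2, a dynamin of endocytosis, at -0.45, with 1 in WT and 3 in KO at an unadjusted p under 0.05. That call was lost without starved KO array 2 or either KO serum array, without starved KO array 1 there were 2, with medians centred there were 1 higher and 0 lower, and none of the other 5 Dnm2 probe sets passed. Of 14 tested NR4A coregulators among 18, limma called none in WT (1 at an unadjusted p under 0.05), where 2.44% of all probe sets were called higher and 1.7% lower, and 2 rose and 0 fell in KO (3 and 4 at an unadjusted p under 0.05), Cited2 by 0.63 and Akt1 by 0.56. Both calls were lost without KO serum array 1, and 1 of them without starved KO array 2 or KO serum array 2. With arrays centred on their medians 4 rose, and with the most variable probe set of each gene 1 fell, as without starved KO array 2. Another probe set of Akt1 gave -0.22.

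**Figure D5:**
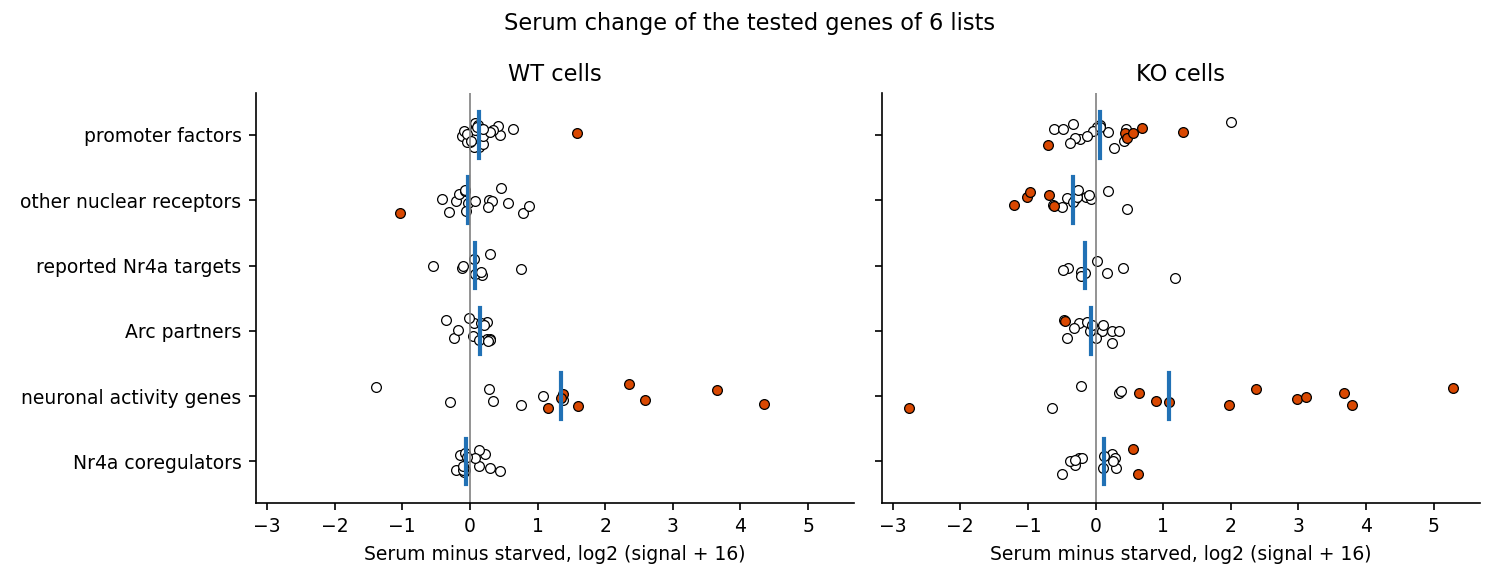
Log2 serum change in WT and in KO of each tested gene of the 6 lists, with genes that passed an adjusted p of 0.05 in orange and each list's median as a blue line. The activity-regulated genes of neurons lie farthest to the right in both genotypes, with medians of 1.35 and 1.09.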

How the data were processed

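Total RNA of 8 samples was measured on 1 array each, 2 per group; the labels name no platform, and probe sets are named as on Affymetrix mouse arrays. The deposited table holds 1 linear intensity for each probe set and array, computed by MAS5 (no version given), per the submitters' processing notes. As MAS5 takes mismatch signal off, dim values carry much noise. Precision is limited by the number of arrays. After 64 control probe sets were left out of 22690, the 14947 (66.1%) that reached the 40th percentile of the array on 2 or more arrays were tested. Symbols came from the annotation table given for the arrays, in which 20380 probe sets name 1 gene, 691 several and 1555 none.

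Values were analysed as log2(signal + 16), with log2 fold changes on that scale, which understates changes of dim probe sets. Group means were fitted to all 8 arrays with limma 3.58.1 in R 4.3.3, with eBayes and a trend of variance on mean. Tests were two-sided, and p-values were adjusted by Benjamini-Hochberg over all tested probe sets. A call is an adjusted p under 0.05. The fit had 4 residual and 6.07 prior degrees of freedom, and an exact permutation test of 2 against 2 arrays cannot go below p = 0.333. Simulated data served to check the procedure. The genes and lists were chosen with earlier results of these data known. Named genes are the 4 chosen genes, Med23, the 5 closest profiles of each chosen gene, and in each list up to 4 called genes with the largest change. Motifs were searched in the RefSeq promoter windows, where 3 of the 4 genes had one. A planned comparison of proteins was not made, since no protein table was used here. Alternatives were other pseudocounts, filters, normalizations, probe set choices and fits, and leaving out each array. Figures were drawn with matplotlib 3.10.9.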

Additional observations from a re-analysis of the deposited data

Results flagged for a closer look

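The serum changes of 5 of the 91 tested genes of the 6 lists, 2 with a larger and 3 with a smaller change in KO, differed between the genotypes by limma's interaction term (KO minus WT, log2, adjusted over all tested probe sets), beside 1.61% and 1.08% of all tested probe sets. The first 2 are nuclear receptors, whose mean signal was higher after serum in WT and lower in KO cells. Rara, a retinoic acid receptor, gave -1.59 (adjusted p = 0.0195), with mean signals of 1284 starved and 1882 after serum in WT and 1700 and 820.6 in KO. Rxrb, a common dimer partner of nuclear receptors, gave -1.43 (adjusted p = 0.00728), with 2611 and 3601 in WT and 5208 and 2641 in KO. The other 3 belong to the activity-regulated genes of neurons. Nfil3 gave 1.74 (adjusted p = 0.00412), with 2900 and 7590 in WT and 807.8 and 7077 in KO. Ifrd1 gave 1.33 (adjusted p = 0.0213), with 4275 and 21855 in WT and 2136 and 27618 in KO. Tiparp gave -0.98 (adjusted p = 0.0473), with 3076 and 7950 in WT and 7622 and 9842 in KO, and its other probe sets gave -1.20 (adjusted p = 0.0659) and -1.25 (adjusted p = 0.0449). When each array was left out in turn, the adjusted p ranged from 0.0171 to 0.0845 for Rara, 0.00577 to 0.0416 for Rxrb, 0.00198 to 0.028 for Nfil3, 0.0148 to 0.0843 for Ifrd1 and 0.0326 to 0.182 for Tiparp. The Rara call was lost without WT starved array 2, either WT serum array or either KO serum array. The Ifrd1 call was lost without either WT starved array, WT serum array 2 or KO serum array 2. The Tiparp call was lost without each array but WT serum array 2.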

How the results depend on the processing

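Adding the largest constant tried to the signal gave serum changes of 4.91 in WT and 5.04 in KO for Nr4a1, 0.88 in KO for the first Nr4a2 probe set (1450749_a_at) and 1.05 in WT for the second (1450750_a_at). Arc's serum change in WT was 6.31, 4.92 and 3.49 with 1, 64 and the largest constant added, and in KO 6.87, 5.76 and 4.39. Quantile normalization gave Nr4a1 a serum change of 5.43 in WT, a KO minus WT difference of -0.08 after serum and an interaction of -0.25. Fitting only the serum arrays left the Nr4a1 difference at 0.24 but with an adjusted p of 0.0133. The interaction of the second Nr4a2 probe set, -1.16, differed by over 2-fold without overlap, which made 1 probe set in place of 0. The 60th percentile filter left both Nr4a2 probe sets untested, so 1 probe set was called after serum in place of 2. Leaving out each array in turn moved the serum change in KO of Nr4a1 between 5.0 and 5.60 and of the first Nr4a2 probe set between 0.73 and 1.99, and that of the second in WT between 1.08 and 1.62. For KO minus WT in starved cells, Nr4a1 lay between -0.17 and 0.43, the first Nr4a2 probe set between -1.09 and 0.16 and the second between -0.12 and 0.41, with 0 to 2 probe sets called. After serum, Arc lay between 0.72 and 1.35 and the first Nr4a2 probe set between -0.11 and 0.17, with 1 to 2 called. The interaction lay between -0.18 and 0.41 for Nr4a1 and between -0.13 and 1.13 for the first Nr4a2 probe set. The cause of these shifts was not tested, apart from the fewer probe sets or arrays in a fit.

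Over all tested probe sets, calls numbered 619 for serum in WT (312 to 705 with an array left out), 3455 for serum in KO (1581 to 3215, and 1040 by the 2-fold rule), 7111 for genotype in starved cells (2881 by the 2-fold rule) and 7506 after serum (3069). The interaction had 402 calls, 250 with no filter, 214 with no trend, 737 by the 2-fold rule and 127 to 495 with an array left out. Set numbers 1 and 2 occur in every group. The correlation of set 1 minus set 2 was 0.214 between the WT groups, 0.097 between the KO groups and -0.034 to 0.006 across genotypes. As all are low, the numbers were not taken as pairs. With the set numbers as a replicate block common to both genotypes, Arc after serum stayed at 1.03 (limma, adjusted p = 0.0211). The second Nr4a2 probe set stayed at -1.01 (adjusted p = 0.00539) and its interaction at -1.16 (adjusted p = 0.0974). No call of these genes changed, and pairing within a genotype was not tested.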

Other observations

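Before serum, 24 of the 91 tested genes of the 6 lists were called higher and 21 lower in KO cells (limma, adjusted p under 0.05), shares of 26.4% and 23.1% beside 22.8% and 24.8% of all tested probe sets, so the values below describe single genes and nothing particular to the lists. Of the 17 other nuclear receptors tested, 9 were higher and 3 lower in starved KO cells, with a median of 0.74 beside -0.01 over all tested probe sets. Nr2f1, an orphan receptor, had a mean signal of 434.2 in WT and 3209 in KO cells (log2 difference 2.86 ± 0.264 SE, adjusted p = 1.57e-05). Rora and Thra were higher by 2.10 and 1.49, and Nr1d1, a clock repressor, was lower, at -2.66 (-1.69 with the largest constant added). Among the 22 factors of the CREB, MEF2 and SRF classes 6 were higher and 8 lower, and the 8 became 5 without either starved WT array. Mef2c had a mean of 240.5 in WT and 2818 in KO cells (3.64 ± 0.441, adjusted p = 0.000102), and its other 4 tested probe sets were also higher, while Crem, of the CREB class, gave -1.29.

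Of the 9 reported NR4A targets, 1 was higher and 2 lower, which became 2 and 1 without starved WT array 1. Pdk4, a kinase that inhibits pyruvate dehydrogenase, had a mean of 12380 in WT and 186.6 in KO cells (-6.02 ± 0.276, adjusted p = 1.77e-07). Among 14 Arc partners 3 were higher and 1 lower. Gria3, an AMPA receptor subunit, read 39.23 in WT and 1068 in KO cells on average (4.35 ± 0.416, adjusted p = 2.03e-05), and as the WT signal lies at the floor, the difference was 2.16 with the largest constant added. Wasf1 gave -2.13. Activity-regulated genes of neurons had 4 higher and 5 lower of 15, and the coregulators 1 higher, Ncoa1 at 1.05, and 2 lower of 14. The 2 became 1 without starved WT array 2 or starved KO array 2. Medians of the 6 lists lay between -0.19 and 0.74.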
